A study of Saccharomyces cerevisiae with 8 samples.

Results

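Superoxide dismutases turn superoxide into hydrogen peroxide and oxygen. In budding yeast (Saccharomyces cerevisiae) the copper-zinc enzyme Sod1 works in the cytosol and in the space between the mitochondrial membranes, and the manganese enzyme Sod2 works in the mitochondrial matrix. Sod1 receives its copper from the chaperone Ccs1. The high-affinity transporter Ctr1 brings copper into the cell, and a further chaperone, Atx1, carries it to the secretory pathway for the iron-uptake oxidase Fet3. Yap1, a transcription factor that gathers in the nucleus when cells meet oxidants, activates many antioxidant genes.

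The data described here are the array values of 5 genes, SOD1 (YJR104C), SOD2 (YHR008C), CCS1 (YMR038C), CTR1 (YPR124W) and ATX1 (YNL259C), taken by the single gene symbol that the array annotation gives to a feature. Each had exactly 1 feature, and together they make 5 of the 3127 genes that could be named. The mutant group was yap1d, which lacks YAP1, and the comparison group was WT, each in the strain backgrounds BY4742 and BY4741. All cultures were grown in YPD to an optical density of 0.5 and then received 200 mM hydroxyurea for 2 h. Hydroxyurea blocks ribonucleotide reductase, the enzyme that makes deoxyribonucleotides. The agent was shared by mutant and WT, and the response to it was not measured.

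Each background had 2 slides (21 and 22 for BY4742, 19 and 20 for BY4741). Each slide carried RNA of yap1d and of WT, with yap1d in channel 1 on slides 21 and 19 and in channel 2 on slides 22 and 20. Each slide gave a column named fort and a column named faible, read here as 2 scans, which makes 8 columns. Whether separate cultures stand behind the 2 slides of each background is not stated in the labels, so the backgrounds were the replicates (n = 2), and p-values from single slides may measure technical spread. The number of arrays limits the precision. YAP1 itself was not analysed here, and the loss of the gene could not be read from the values.

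Values are log ratios of yap1d over WT, centred on the median of their column. Base 2 was assumed because no label names it. The direction is likely rather than known: it was set so that TRX2, the thioredoxin gene, and TRR1, the thioredoxin reductase gene, both textbook targets of Yap1, were lower in yap1d. TRX2 averaged -1.57 ± 0.393 and TRR1 -0.998 ± 0.00265 (SD, n = 2). If that choice is wrong, every sign below turns. A natural logarithm would make the folds larger and leave the tests as they are.

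SOD1, SOD2, CCS1 and CTR1 were lower in yap1d, and ATX1 did not pass the test. SOD1 averaged -1.52 ± 0.0345, SOD2 -0.65 ± 0.0698, CCS1 -0.55 ± 0.0186, CTR1 -0.37 ± 0.0734 and ATX1 -0.07 ± 0.252 (mean log2 ratio ± SD, n = 2 backgrounds). Thus 4 of the 5 genes fell at an adjusted p under 0.05 in limma, where 1.57% of all named genes were called lower (49 of 3127). None of the 5 rose, where 0.544% were called higher. The 5 genes were chosen with earlier results of these data known, so these shares are a description only. A fit on the 4 slides with a term for the channel, which called 1.18% of named genes lower, kept SOD1, SOD2 and CCS1 but not CTR1.

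**Figure D1:**
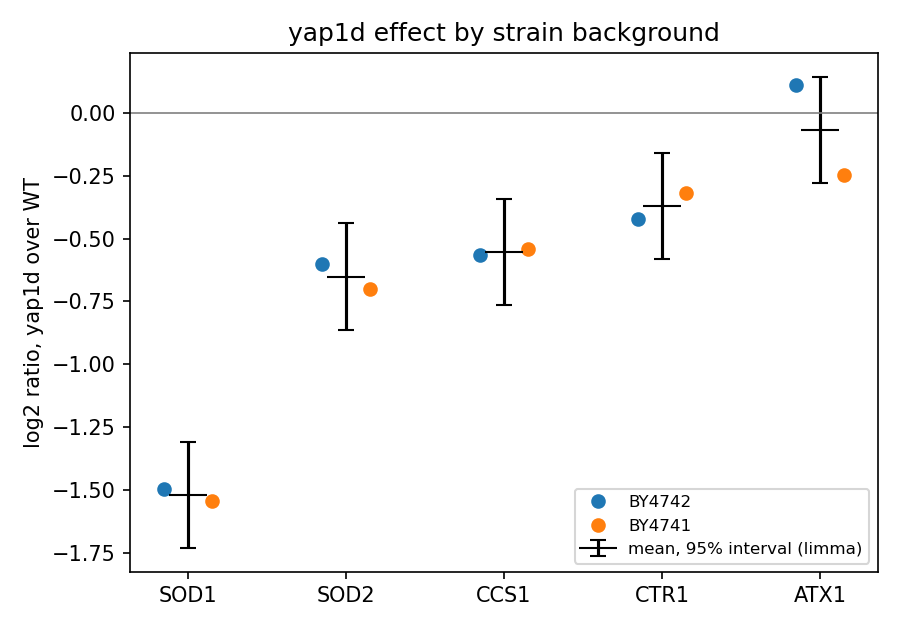
Mean log2 ratio of yap1d over WT for the 5 genes (horizontal bars) with the 95% interval from limma, and the value of each strain background (points, n = 2). SOD1 lies near -1.52, SOD2, CCS1 and CTR1 lie between -0.65 and -0.37 with both backgrounds below 0, and the backgrounds of ATX1 fall on either side of 0.

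SOD1 was the most strongly lowered of the 5. In BY4742 its ratio was -0.89 (fort) and -1.09 (faible) on slide 21, and -1.79 (fort) and -2.22 (faible) on slide 22. In BY4741 it was -1.15 (fort) and -1.18 (faible) on slide 19, and -1.76 (fort) and -2.09 (faible) on slide 20. All 8 columns lay below 0, and the slides with yap1d in channel 2 were lower than the slides with yap1d in channel 1 in either background.

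With the channels averaged, SOD1 stood at -1.50 in BY4742 and -1.54 in BY4741, a fall of 2.87-fold with a 95% interval of 2.48 to 3.32 (limma adjusted p = 5.52e-41). On a natural logarithm the same value would be 4.58-fold. Only 3 named genes had a lower mean, namely TRX2, the glutathione peroxidase gene GPX2 (-2.29 ± 0.167) and YNL134C (-2.14 ± 0.0133), the last 2 named after their values were seen. In the fit of the 4 slides the adjusted p was 2.34e-06 (limma). The same fit with the ordinary variance of each gene, without limma's moderation, ended the call (adjusted p = 0.457, unadjusted p = 0.00102). The first p-value is so small because limma gave every gene 1 common SD of 0.153, with an infinite number of prior degrees of freedom against 1 residual degree. That assumption also sets the width of each 95% interval given here. Without slide 19 or slide 21 the mean of SOD1 was -1.48 or -1.56, and its call was only just inside the threshold.

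The 2 scans of SOD1 differed in a way the other 4 genes did not show on every slide. Its fort ratio was closer to 0 than its faible ratio on all 4 slides, with gaps of 0.20 (slide 21), 0.43 (slide 22), 0.03 (slide 19) and 0.33 (slide 20). Over all features the opposite was common, as 81.8% to 87.4% of features had a fort ratio farther from 0 than the faible ratio of the same slide. The mean of SOD1 was -1.40 in the fort columns alone and -1.64 in the faible columns alone. None of the 5 genes had a deposited value of exactly 0 in any column. Whether saturation plays a part was not tested, since no channel intensities were used here.

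SOD2, the mitochondrial enzyme, was lower by a smaller step. In BY4742 its ratio was -0.20 (fort) and -0.29 (faible) on slide 21, and -1.0 (fort) and -0.92 (faible) on slide 22. In BY4741 it was -0.05 (fort) and -0.18 (faible) on slide 19, and -1.36 (fort) and -1.21 (faible) on slide 20. Every column lay below 0, but the values on slides 21 and 19, with yap1d in channel 1, were small beside those on slides 22 and 20. That split followed the channel. With the mean ratio of channel 1 over channel 2 (0.47) taken out, SOD2 stood at -0.71 (slide 21), -0.49 (slide 22), -0.59 (slide 19) and -0.81 (slide 20).

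After averaging the channels, SOD2 was at -0.60 in BY4742 and -0.70 in BY4741, a fall of 1.57-fold with a 95% interval of 1.36 to 1.82 (limma adjusted p = 3.93e-07, and 0.00246 on the 4 slides). There were 16 named genes with a lower mean. Without slide 19 or slide 21 its means were -0.68 and -0.62, and its adjusted p-values in limma were 0.321 and 0.391. SOD2 kept its call without slide 20 (-0.57) or slide 22 (-0.73). The prior degrees of freedom of limma were 3.47 in the first 2 fits and infinite in the last 2. Leaving out slide 19 or slide 21 leaves the same residual, slide 20 against slide 22. The losses without these slides thus share the same variance estimate and are not separate failures. A loess on the channel effect, chosen after seeing the data, left it at -0.60 (limma adjusted p = 0.0612), and without moderation on the 4 slides its adjusted p was 0.644.

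CCS1, which encodes the copper chaperone of Sod1, fell by nearly the same amount as SOD2. In BY4742 the ratio of CCS1 was -0.20 (fort) and -0.27 (faible) on slide 21, and -0.97 (fort) and -0.83 (faible) on slide 22. In BY4741 the ratio of CCS1 was -0.29 (fort) and -0.23 (faible) on slide 19, and -0.89 (fort) and -0.75 (faible) on slide 20. Again all 8 columns were below 0, and the 2 slides of like orientation gave close values in the 2 backgrounds.

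The background means of CCS1 were -0.57 in BY4742 and -0.54 in BY4741, the closest pair of the 5 genes. The fall was 1.47-fold with a 95% interval of 1.27 to 1.70 (limma adjusted p = 5.03e-05, and 0.00380 on the 4 slides), and 22 named genes had a lower mean. The call was lost after quantile normalization (mean -0.54, limma adjusted p = 0.0667), after scaling the columns by their median absolute deviation (-0.53, limma adjusted p = 0.0633), after the loess (-0.52, limma adjusted p = 0.0890), without slide 19 (-0.55, limma adjusted p = 0.321) or slide 21 (-0.56, limma adjusted p = 0.275), and on the 4 slides without moderation (adjusted p = 0.543).

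CTR1, the gene of the plasma membrane copper transporter, had ratios that followed the channel. In BY4742 its ratio was 0.12 (fort) and 0.16 (faible) on slide 21, and -1.04 (fort) and -0.92 (faible) on slide 22. In BY4741 its ratio was 0.24 (fort) and 0.19 (faible) on slide 19, and -0.89 (fort) and -0.81 (faible) on slide 20. The 4 columns with yap1d in channel 1 were all above 0 and the 4 with yap1d in channel 2 were all below it.

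The fall of CTR1 therefore exists only as the imbalance between the 2 orientations, -0.42 in BY4742 and -0.32 in BY4741. It amounted to 1.29-fold with a 95% interval of 1.12 to 1.5 and was just inside the threshold (limma adjusted p = 0.0390), while the 4 slides gave an adjusted p of 0.0546 in limma. There were 45 named genes with a lower mean. The call was lost in 11 of 16 alternative settings, among them the fort columns alone (limma adjusted p = 0.0761), the values as deposited (limma adjusted p = 0.139) and removal of print block medians (limma adjusted p = 0.0732). It was also lost without slide 19 (mean -0.39, limma adjusted p = 0.555), without slide 21 (mean -0.35, limma adjusted p = 0.536) and without slide 22 (mean -0.34, limma adjusted p = 0.105).

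ATX1, the chaperone gene of the secretory branch, was near 0. In BY4742 its ratio was 0.15 (fort) and 0.045 (faible) on slide 21, and 0.13 (fort) and 0.12 (faible) on slide 22. In BY4741 its ratio was 0.00 (fort) and -0.12 (faible) on slide 19, and -0.51 (fort) and -0.35 (faible) on slide 20. All 4 columns of BY4742 were above 0 and no column of BY4741 was.

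Its mean of -0.07 had a 95% interval of -0.28 to 0.15 and did not pass (limma adjusted p = 0.994). The interval is narrower than the SD of 0.252 between backgrounds would give, because of the common SD. Without slide 20 the mean was 0.07. There were 866 named genes with a lower mean.

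**Figure D2:**
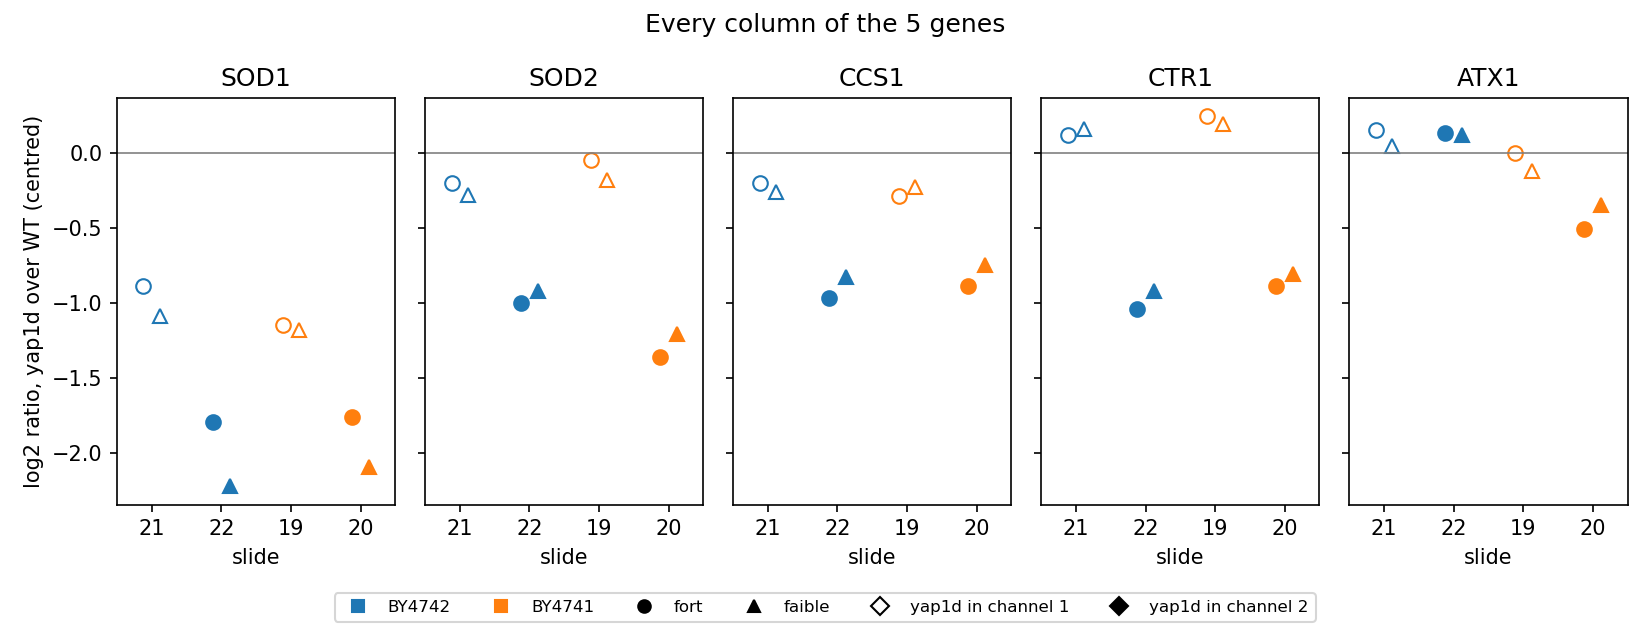
Centred log2 ratio of yap1d over WT in every column, by slide, for each of the 5 genes. Open symbols have yap1d in channel 1 and filled symbols in channel 2, circles are fort and triangles faible, and colour marks the background. SOD1, SOD2 and CCS1 are below 0 in all 8 columns, CTR1 changes side with the channel, and ATX1 is above 0 in the 4 columns of BY4742.

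The order of the 5 effects, lowest first, was SOD1, SOD2, CCS1, CTR1 and ATX1. The effect of SOD1 minus that of SOD2 was -0.87 (-0.90 in BY4742 and -0.84 in BY4741), and it was below 0 on 4 of 4 slides, between -1.05 and -0.64. The effect of SOD1 minus that of CCS1 was -0.97, also below 0 on 4 of 4 slides. SOD2 and CCS1 differed by -0.10 (-0.04 in BY4742 and -0.16 in BY4741), with slide differences between -0.47 and 0.15, so these neighbours in the order did not differ beyond their spread. CCS1 and CTR1 differed by -0.18 (-0.145 in BY4742 and -0.2225 in BY4741), with slide differences between -0.48 and 0.08. All slide differences given here keep the channel effects of both genes (0.31 for CCS1 and 0.55 for CTR1). These cancel in the background values, so the slide range of a pair is widened by the channel. CTR1 and ATX1 differed by -0.30 (-0.5325 in BY4742 and -0.0725 in BY4741). On single slides, with the channel kept, that difference had a sign of its own in each orientation, between -1.11 and 0.28. An exact sign-flip test (two-sided) over the 4 slides cannot go below p = 0.125. That was its value for SOD1 against each of the other genes, and also for SOD2 and CCS1 against ATX1, with an adjusted value of 0.208 over 10 pairs. The test used the slide differences with the channel kept, so for pairs with unlike channel effects it also reflects the channel. These are differences between ratios, which do not compare the transcript levels of the genes.

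The effect of yap1d was then compared between BY4742 and BY4741 on the 4 slides. For BY4742 minus BY4741 the difference was 0.05 for SOD1 (95% interval -0.26 to 0.36), 0.10 for SOD2 (-0.25 to 0.44), -0.03 for CCS1 (-0.33 to 0.27), -0.10 for CTR1 (-0.40 to 0.19) and 0.36 for ATX1 (0.02 to 0.69). The intervals of the first 4 genes span 0 and still allow differences of about the size of the CTR1 effect. ATX1 had the largest difference of the 5, with an unadjusted p of 0.0399 and an adjusted p of 0.409 in limma, so it did not pass. None of the 3127 named genes passed (0% called), while 12.6% of them had an unadjusted p under 0.05.

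The channel alone moved 4 of the 5 genes. Averaged over both orientations, the ratio of channel 1 over channel 2 was 0.44 for SOD1 (limma adjusted p = 0.000469), 0.47 for SOD2 (0.000516), 0.31 for CCS1 (0.00416), 0.55 for CTR1 (9.82e-05) and 0.09 for ATX1 (0.459). A channel effect was called for 62.8% of named genes, so 4 of 5 is near the background. For CTR1 the channel effect was larger than the effect of yap1d, and for SOD1 it was smaller.

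Across the named genes, the yap1d effect ran slightly downwards as the channel effect rose (r = -0.274, a description over 3127 genes on the same slides). The median yap1d effect of the genes within 0.1 of the channel effect of a given member was -0.05 for SOD1, -0.06 for SOD2, -0.03 for CCS1, -0.07 for CTR1 and -0.02 for ATX1. Of 328 named genes with a channel effect like that of CTR1, 12 had a lower yap1d effect than CTR1, and of 440 like SOD1, 3 were lower than SOD1.

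**Figure D3:**
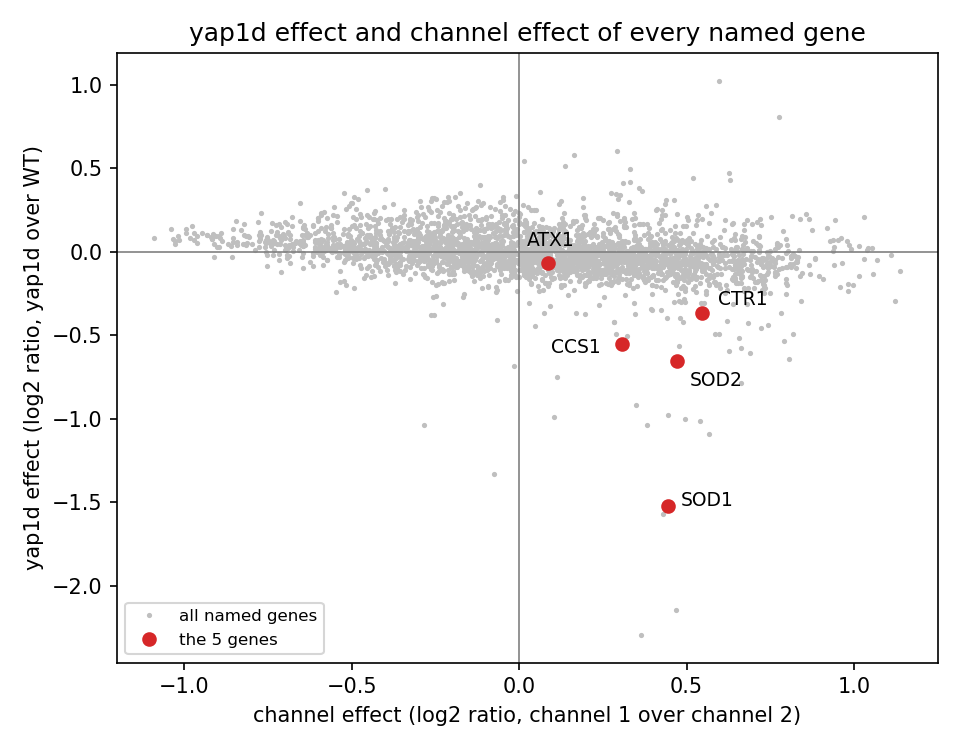
Effect of yap1d (vertical, log2 ratio of yap1d over WT) against the channel effect (horizontal, log2 ratio of channel 1 over channel 2) for all 3127 named genes, with the 5 genes in red. SOD1 (-1.52) stands well below the cloud, CTR1 (-0.37) lies at its lower edge, and ATX1 (-0.07) lies within it.

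Place on the slide was read as a further check. SOD1, SOD2 and CCS1 each had the lowest mean of the 144 features in their print block, whose medians over the 4 slides were -0.02, 0.01 and -0.03. Block medians of single slides could lie farther from 0. The CCS1 block was at -0.29 (fort) and -0.19 (faible) on slide 19, where CCS1 itself was at -0.29 and -0.23. On slide 20 that block was at 0.075 and 0.09, and CCS1 at -0.89 and -0.75. The SOD2 block was at -0.25 (fort) on slide 20 and 0.335 (fort) on slide 22. CTR1 was 7th from the bottom of its block (median -0.03), and ATX1 was 22nd (median 0.04). With print block medians removed, SOD1 averaged -1.48, SOD2 -0.65, CCS1 -0.51, CTR1 -0.30 and ATX1 -0.10.

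**Figure D4:**
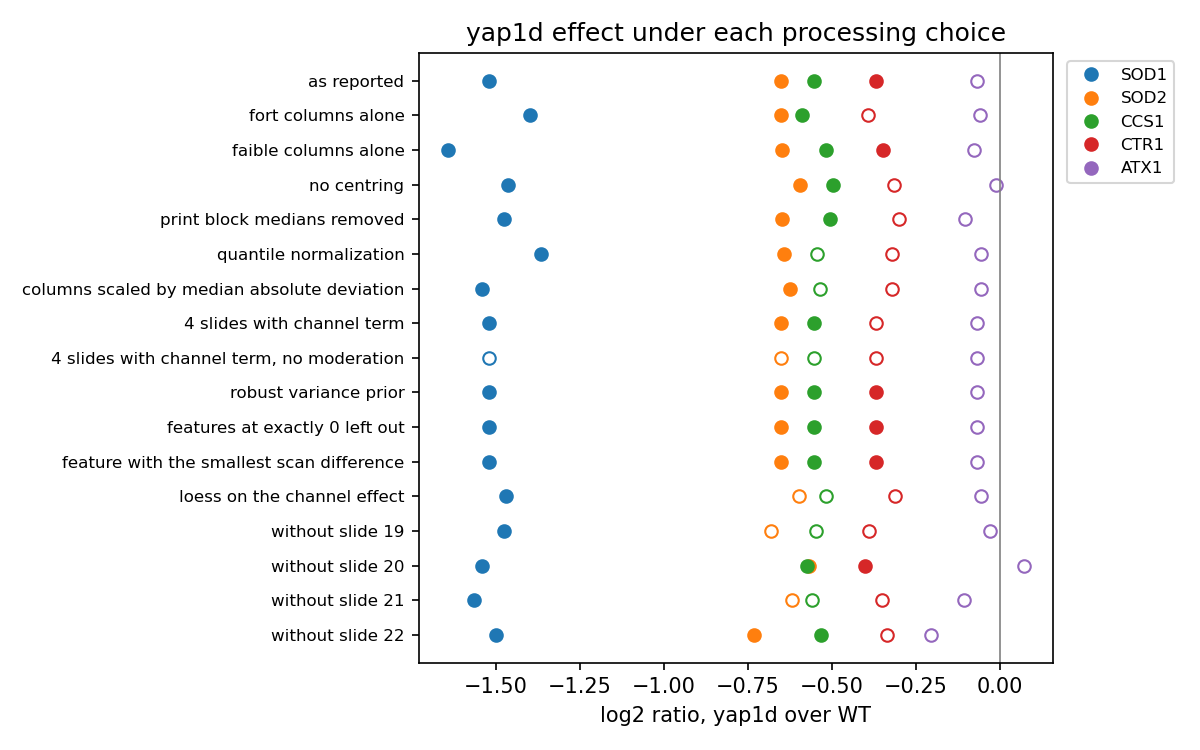
Effect of yap1d (log2 ratio of yap1d over WT) of the 5 genes as reported and under each of 16 alternative settings, filled where the limma adjusted p was under 0.05. SOD1 stays between -1.64 and -1.37 and is open in 1 setting, CTR1 is open in 11 settings, and ATX1 is open throughout.

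Other genes of copper supply were read from lists written with earlier results of these data known. In the Mac1 regulon of copper uptake, 2 of 5 listed genes were measured and CTR1 was the 1 that fell, where 1.57% of all named genes were called lower. In the fit of the 4 slides neither passed. The other, CTR3, a second high-affinity copper transporter, was at -0.03 ± 0.149 (limma adjusted p = 0.994). The metallothionein and Ace1 list had 2 measured members of 5, of which SOD1 fell (1.57% of all named genes were called lower). The other, CUP2, encodes the copper sensor Ace1, a known activator of SOD1, and was at 0.04 ± 0.0309 over its 2 features (limma adjusted p = 0.994).

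Copper delivery had 6 measured members of 11, of which CCS1 fell and none rose, where 1.57% of all named genes were called lower and 0.544% higher. The list median was -0.05, against -0.01 over all named genes. COX17, which carries copper towards cytochrome c oxidase, was at -0.17 ± 0.156. SCO1, which passes copper to that oxidase, was at -0.03 ± 0.0150. Its relative SCO2 was at 0.25 ± 0.130 (limma adjusted p = 0.424) and COX23 at 0.17 ± 0.30. FTH1, an iron permease of the vacuole, was the 1 measured member of the copper oxidases and iron permeases (-0.01 ± 0.133). None of these passed. In the copper lists the only called genes were thus CTR1, SOD1 and CCS1, which are members described above. The counts of these lists restate the member results and add no further called gene.

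The list of manganese supply had 4 measured members of 7, and none passed. SMF2, PMR1 and PHO84 were the members not measured here as named genes. The manganese transporter gene SMF1 was at -0.18 ± 0.0610 (limma adjusted p = 0.796), the vacuolar iron and manganese transporter gene CCC1 at -0.12 ± 0.0309, the mitochondrial carrier gene MTM1, needed for active Sod2, at 0.02 ± 0.0433 with 1 column at exactly 0, and ATX2 at 0.01 ± 0.0804. The list median was -0.06.

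The list of superoxide and peroxide removal had 8 measured members of 12. Of these 6 fell, 3 of them members described above, and none rose, where 1.57% of all named genes were called lower and 0.544% higher. The list median, which includes those 3 members, was -0.60, against -0.01 over all named genes. This list too was written with earlier results of these data known, so its share of falls is a description only. Beside SOD1, SOD2 and CCS1, the mitochondrial peroxiredoxin gene PRX1 fell (-0.79 ± 0.0433, limma adjusted p = 1.07e-10). The peroxiredoxin gene AHP1 (-1.09 ± 0.0115) and the flavohaemoglobin gene YHB1 (-0.42 ± 0.0274) fell as well, but AHP1 had a deposited value of exactly 0 in 2 columns and YHB1 in 1, so their sizes are uncertain. The cytochrome c peroxidase gene CCP1 (-0.05 ± 0.241) and the nuclear peroxiredoxin gene DOT5 (-0.00438 ± 0.00972) did not pass. All 6 falls were also called in the fit of the 4 slides.

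The named genes most like each member were those with the smallest root mean square difference over the 4 slides. The channel was not removed from these values, so genes were matched on the channel effect as well as on the yap1d effect. The channel effect of CCS1 was 0.31, for example, and those of its nearest genes DRE2, DBP2 and TPO1 were 0.29, 0.32 and 0.28. For SOD1 they were TRX2 (0.261), AHP1 (0.459) and CYC1 (0.496), the gene of iso-1-cytochrome c, which averaged -1.03 ± 0.0539. SOD1 thus had few genes near it, and TRX2, which set the direction, was the closest.

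For SOD2 they were the fatty acid elongase gene ELO1 (0.167), the mitochondrial NADH dehydrogenase gene NDE1 (0.220) and the glutaredoxin gene GRX2 (0.229), at -0.59 ± 0.0362, -0.56 ± 0.116 and -0.49 ± 0.197. For CCS1 they were DRE2, of cytosolic iron-sulfur assembly (0.142, mean -0.49 ± 0.160), the RNA helicase gene DBP2 (0.142, mean -0.50 ± 0.204) and the polyamine transporter gene TPO1 (0.142, mean -0.42 ± 0.0186). For CTR1 they were the phospholipid methyltransferase gene CHO2 (0.104), YHB1 (0.106) and the cell wall mannoprotein gene HPF1 (0.110), at -0.42 ± 0.144, -0.42 ± 0.0274 and -0.30 ± 0.171. GRX2, YHB1 and HPF1 each had 1 column at exactly 0, and HPF1 did not pass (limma adjusted p = 0.175).

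The genes beside SOD1 on its chromosome, by the order of the R64 RefSeq annotation, were both measured. URA8, a CTP synthase gene, was at -0.14 ± 0.130 and ADO1, an adenosine kinase gene, was at -0.13 ± 0.141 (limma adjusted p = 0.994 for each). The genes beside ATX1 were LTO1 (0.10 ± 0.165) and DSL1 (-0.01 ± 0.0133), which did not pass either. The genes beside SOD2, CCS1 and CTR1 were not analysed here.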

How the data were processed

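RNA of yap1d and WT yeast shared each slide of a spotted array, per the labels. The authors deposited log ratios, taken here as log2, in 8 columns of 6912 features without gaps. Not given in the sources used here are the base, the channel on top, the background correction and the normalization. Column medians ran from -0.28 to 0.04. Features were named from the array's annotation, updated to the R64 reference table: 3344 had 1 gene symbol (3343 matched), 387 had several and 3181 none here. Features of a gene were averaged, leaving 6695 units, 3127 of them named genes. Positions are left out because the array's build is not named.

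Columns were centred on their median, scans averaged, ratios turned to yap1d over WT by the labelled channel, and the 2 slides of a background averaged. An intercept was fitted with lmFit and eBayes (limma 3.58.1, R 4.3.3), two-sided, with Benjamini-Hochberg adjustment over all 6695 units and a threshold of 0.05. The 4 slides were also fitted with a channel term, which gave the channel effect and, with a further term, the strain difference. The fits were checked on simulated data, where mean estimates had to lie close to the known effects. That check set no criterion for the p-values. It does not bear on whether the 2 slides of a background share a culture, because residuals were shuffled within each slide. Named genes were the 5 members, TRX2 and TRR1, measured members of 6 gene lists, and the 3 most similar genes of each member that passed. The genes beside the members were named after their values were seen. Members and lists were chosen with earlier results of these data known. Alternatives varied scan, centring, scaling, replicate unit, variance prior, filter, feature choice and the slides used. Sequence of promoters and proteins was not used here, so the planned motif search was not run. Figures were drawn with matplotlib 3.10.9.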

Additional observations from a re-analysis of the deposited data

How the results depend on the processing

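Over 16 alternatives SOD1 lay between -1.64 and -1.37 and kept its call in 15, SOD2 lay between -0.73 and -0.57 (12 of 16), CCS1 between -0.59 and -0.50 (10 of 16) and CTR1 between -0.40 and -0.30 (5 of 16), all below 0. ATX1 ran from -0.21 to 0.07, turned to 0.0719 without slide 20, and passed in none. Not all settings could move these means. The filter on exact 0 and the choice of feature could not, as each gene had 1 feature and no 0. The robust prior and both fits of all 4 slides also leave the means unchanged by design. The calls that CTR1 kept include the filter, the feature choice and the robust prior (limma adjusted p = 0.0392, 0.0425 and 0.0263).

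On the 4 slides without moderation of the variance, no named gene passed (0 against 66, with 230 at an unadjusted p under 0.05) and SOD1 (-1.52), SOD2 (-0.65), CCS1 (-0.55) and CTR1 (-0.37) lost their calls with values as in the report. CTR1 lost its call at -0.39 in the fort columns, -0.31 with no centring, -0.30 without print block medians and -0.37 on the 4 slides with moderation. After quantile normalization CCS1 (-0.54) and CTR1 (-0.32) lost theirs, with 18 genes called. After scaling by median absolute deviation CCS1 (-0.53) and CTR1 (-0.32) lost theirs, also with 18 genes called. After the loess on the channel effect, added after seeing the data, SOD2 (-0.60), CCS1 (-0.52) and CTR1 (-0.31) lost theirs, with 15 genes called (13 lower, 2 higher). The prior degrees of freedom of limma were infinite as reported, and 5.52, 6.05 and 5.17 in these 3 settings.

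Without 1 slide, fitted on the other 3, the count of called genes ran from 3 to 95 (3 without slide 19 or 21, 95 without slide 20, 92 without slide 22), SOD1 from -1.56 to -1.48, SOD2 from -0.73 to -0.57, CCS1 from -0.57 to -0.53, CTR1 from -0.40 to -0.34 and ATX1 from -0.21 to 0.07. The prior had 3.47 degrees of freedom without slide 19 or 21 and was infinite without slide 20 or 22.

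The calls were 49 lower and 17 higher as reported, and 36 lower and 34 higher with no centring. The strain difference for BY4742 minus BY4741 changed sign for SOD1 with the faible columns (-0.0175) and without print block medians (-0.0075), for SOD2 without print block medians (-0.14), and for CCS1 with the fort columns (0.005) and with no centring (0.01). These differences were within their intervals, and none passed. Across named genes the strain difference was called for 73 with the faible columns and 15 with no centring, against 0 as reported. The cause was not tested. Channel effects kept their sign and side of the threshold in either scan alone for all 5 genes. Each ratio already sets yap1d against WT on the same slide, and the 2 backgrounds share no replicate number that could serve as a further block.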
